A study of Danio rerio with 30 samples.

Results

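The genes described here are the nuclear genes of respiratory complexes III, IV and V in zebrafish blood stem and progenitor cells. They were every row of the count table whose gene symbol, ignoring case, starts with uqcr or cyc1 (complex III), with cox4 to cox8 (complex IV), or with atp5 (complex V). The rule found 50 genes of 20631 in the table: 9 of complex III, 21 of complex IV and 20 of complex V. Of these, 48 had enough counts to be tested. The other 2 were cox4i1l, with 84 counts in all and none in 11 of 30 libraries, and the COX5B copy ENSDARG00000113254, with 73 counts in all and none in 13 libraries.

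The study measured RNA from cells sorted for low GFP from embryos carrying Tg(itga2b:GFP), a transgene in which the promoter of the platelet integrin gene itga2b drives GFP. All groups carried it. Het embryos were rps14+/-, with 1 mutant copy of a gene for a small ribosomal subunit protein, and WT embryos were rps14+/+. Phz embryos were bathed in 1 µg/mL phenylhydrazine, which lyses red blood cells, between 24 and 48 hours post fertilization; unstressed embryos were not. From then on embryos of all groups were held in 20 µM imiquimod, which activates TLR7, a receptor for single-stranded RNA, or in its vehicle DMSO for 4 days, and were 6 days old at the end. Embryos were genotyped from tail clips and pooled by group before sorting. The 8 groups were Het Phz imiquimod (n = 4 libraries), Het Phz DMSO (n = 5), Het unstressed imiquimod (n = 3), Het unstressed DMSO (n = 4), WT Phz imiquimod (n = 4), WT Phz DMSO (n = 3), WT unstressed imiquimod (n = 4) and WT unstressed DMSO (n = 3). The labels number the libraries of a group without stating that each is a separate pool, so p-values measure the spread between libraries, part of which may be technical. The labels also number the libraries across groups. After S1 to S6, which held no Phz DMSO library, these numbers ran in blocks by stress and treatment. Beyond S1 to S6, any order of handling that followed the numbers cannot be told apart from stress and treatment.

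Complexes III, IV and V are the last part of the respiratory chain and the enzyme it powers. Complex III (cytochrome bc1) passes electrons from ubiquinol to cytochrome c, complex IV (cytochrome c oxidase) passes them on to oxygen, and both move protons out of the mitochondrial matrix. Complex V (ATP synthase) lets the protons back through its membrane part Fo and makes ATP in its head F1. Most subunits are encoded in the nucleus, while cytochrome b of complex III, the catalytic core of complex IV and part of Fo are encoded in mitochondrial DNA. Blood stem cells are known for low use of the respiratory chain, which rises as they differentiate.

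The mutated gene followed its labels. Levels are given in CPM, the usual scale that divides each count by the total of the library. RPS14 had between 100.4 and 345.5 CPM (median 250.5) in the 16 Het libraries, against between 346.9 and 671.7 CPM (median 556.2) in the 14 WT libraries. The genotypes did not overlap, and the averaged log2 fold change was -1.25 ± 0.14 (SE; adjusted p = 2.43e-06, edgeR quasi-likelihood test). Total counts per library lay between 5703056 and 15238153 (median 6894464). The 7 unstressed imiquimod libraries were among the shallowest, with 5703056 to 6557319 counts, against 5789665 to 8182578 in the 7 unstressed DMSO libraries. All 8 stem and progenitor markers in the table had counts in every library, as did itga2b, at a mean of 9.19 CPM. Markers of other cells were present too: 5 neutrophil genes together took between 5425 and 31150 CPM. In bulk RNA, fewer cells of a type and less RNA per cell cannot be told apart.

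Mean shares of reads ran from 0.335 CPM for the untested COX5B copy to 960.0 CPM for ATP5F1B, the catalytic beta subunit of F1. In complex III the range was from 8.58 CPM for UQCRB to 430.1 CPM for UQCRC1, and in complex IV it reached 182 CPM for cox6b2. These are shares of reads. Transcript lengths were not used, so they do not rank the genes by transcript number.

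Of the 8 groups, both unstressed imiquimod groups had the lowest mean levels of these genes in all 3 complexes. For each library the log2 CPM of the tested genes was averaged within each complex. For complex IV this mean was 4.91 ± 0.12 in Het Phz imiquimod, 4.88 ± 0.28 in Het Phz DMSO, 4.46 ± 0.32 in Het unstressed imiquimod and 4.98 ± 0.09 in Het unstressed DMSO (SD, n = 4, 5, 3 and 4). In WT it was 5.02 ± 0.27 in Phz imiquimod, 4.63 ± 0.13 in Phz DMSO, 4.37 ± 0.24 in unstressed imiquimod and 5.13 ± 0.09 in unstressed DMSO (SD, n = 4, 3, 4 and 3). The unstressed imiquimod groups were thus the lowest of the 8, and the next was WT Phz DMSO. For complex III the unstressed imiquimod libraries lay between 6.06 and 6.34 (median 6.26) and the unstressed DMSO libraries between 6.54 and 6.74 (median 6.66). For complex V the ranges were 5.99 to 6.43 (median 6.14) in unstressed imiquimod and 6.63 to 6.90 (median 6.74) in unstressed DMSO. For complex IV they were 4.12 to 4.83 (median 4.32) in unstressed imiquimod and 4.86 to 5.22 (median 5.04) in unstressed DMSO. In all 3 complexes the 7 imiquimod and 7 DMSO libraries without stress did not overlap on this mean, in which each gene counts alike. On summed CPM complexes IV and V were also separate, but complex III overlapped. Its sums were 1169 to 1679 CPM in unstressed imiquimod and 1383 to 1788 CPM in unstressed DMSO. After Phz the mean log2 CPM did overlap: complex IV lay between 4.68 and 5.32 in the 8 imiquimod libraries and between 4.39 and 5.07 in the 8 DMSO libraries.

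**Figure D1:**
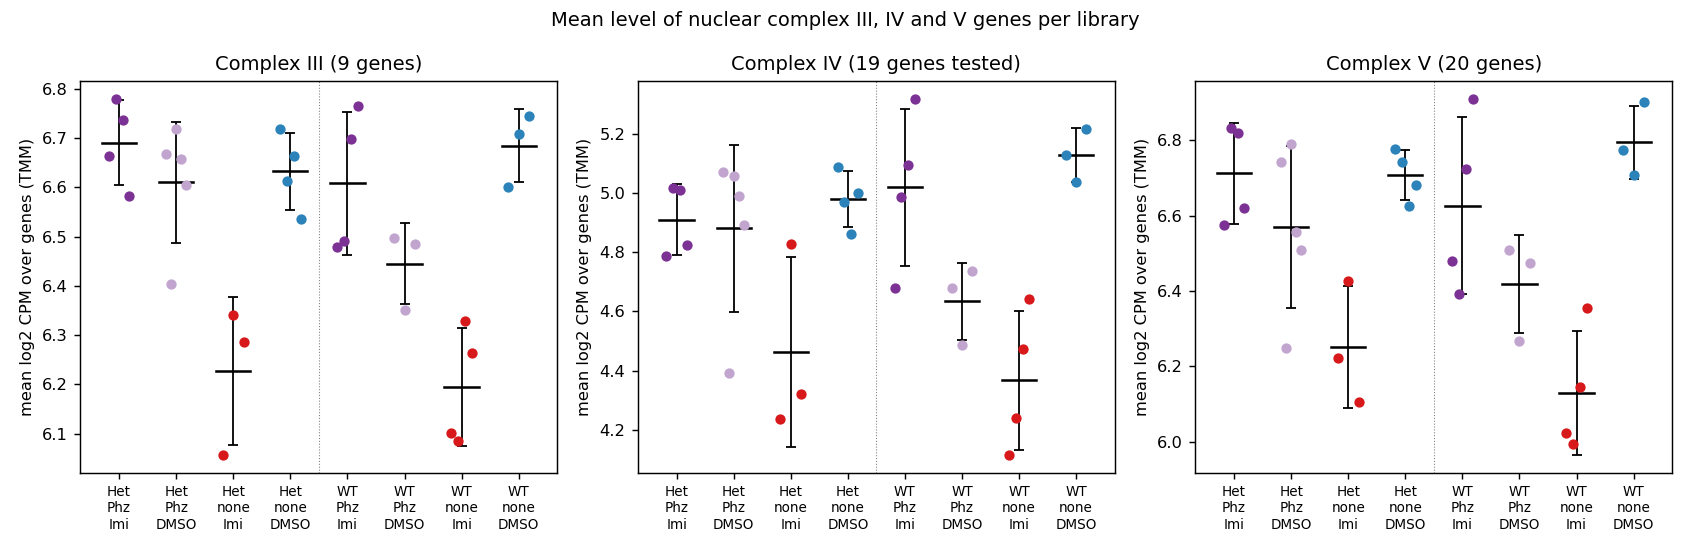
Mean log2 CPM of the tested genes of complexes III, IV and V in each of the 30 libraries, by group; points are libraries, and the horizontal lines and bars are the group mean and SD. The unstressed imiquimod libraries lie below all unstressed DMSO libraries in each panel: in complex IV between 4.12 and 4.83, against 4.86 to 5.22 in unstressed DMSO.

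Gene by gene, the WT unstressed imiquimod group had the lowest mean of the 8 groups for 35 of the 48 tested genes and Het unstressed imiquimod for 9. Of all 19930 tested genes, 2125 had their lowest mean in WT unstressed imiquimod and 1577 in Het unstressed imiquimod. Both groups together were the lowest pair for 24 of the 48, while 3.18% of all 19930 tested genes had that order. The 4 genes with their lowest mean elsewhere were UQCRB, cox8a and cox8b, lowest in WT Phz DMSO, and ATP5F1A, lowest in Het Phz imiquimod. For 9 genes every unstressed imiquimod library lay below every unstressed DMSO library, an order that 0.181% of all tested genes had. They were 3 small subunits of complex IV (cox7b, cox6a1 ENSDARG00000022438 and COX7A2 ENSDARG00000110700), the COX5B copy ENSDARG00000015978, and 5 of complex V (atp5f1e, ATP5PF, ATP5MG, atp5meb and atp5if1a). None of the 48 had all 7 imiquimod libraries above all 7 DMSO libraries, against 0.0602% of all tested genes.

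One of the 9 was the inhibitor atp5if1a. Its protein binds the F1 head and blocks ATP synthase from running backwards and hydrolysing ATP; zebrafish mutants in this gene are anaemic, with a defect in haem synthesis. Its level was 73.9, 72.0, 80.1 and 69.8 CPM in Het Phz imiquimod and 73.8, 43.2, 90.0, 69.6 and 87.1 CPM in Het Phz DMSO. It was 37.1, 43.8 and 37.9 CPM in Het unstressed imiquimod and 78.2, 78.3, 68.6 and 86.5 CPM in Het unstressed DMSO. Without stress the Het imiquimod libraries were all below the Het DMSO libraries, and after Phz they lay inside the DMSO range. In WT the values were 64.7, 48.8, 60.7 and 87.7 CPM in Phz imiquimod and 39.8, 40.1 and 47.5 CPM in Phz DMSO. They were 39.4, 31.1, 38.6 and 43.5 CPM in WT unstressed imiquimod and 55.8, 51.9 and 79.8 CPM in WT unstressed DMSO. Thus the WT imiquimod libraries lay above the DMSO libraries after Phz and below them without stress.

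For atp5if1a the imiquimod effect after Phz minus that without stress, averaged over the genotypes, was 1.20 ± 0.24 on the log2 scale (SE; adjusted p = 0.0479, edgeR). It was the only one of the 48 genes called at an adjusted p under 0.05, in a contrast in which 0.0351% of all tested genes were called. Its adjusted p was close to the threshold. In 28 of 30 fits that each left out 1 library the gene was no longer called (adjusted p up to 0.137, log2 value 1.08 to 1.27), and it was called only without Het unstressed DMSO replicate 3 (1.25) or WT Phz imiquimod replicate 2 (1.25). All genes called in these 30 fits numbered 1 to 9, against 7 with all libraries.

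None of the other 47 passed the threshold in this contrast, but most had the same sign. The sign was positive for 47 of the 48 genes, against 52.2% of all tested genes, and 33 of the 48 had an unadjusted p under 0.05, against 8.85% of all tested genes. The 48 genes were read in the same libraries, so counts of genes here and below are not independent observations. The median log2 value was 0.50 for complex III, 0.85 for complex IV and 0.59 for complex V, beside 0.04 for all tested genes. For cox7b, a small membrane subunit of complex IV, the value was 1.53 ± 0.31 (adjusted p = 0.0616, edgeR). For the COX5B copy ENSDARG00000015978, a zinc-binding subunit on the matrix side of complex IV, it was 0.93 ± 0.20 (adjusted p = 0.0714, edgeR). Both thus missed the threshold, as did ATP5PF of the peripheral stalk (1.09 ± 0.24, adjusted p = 0.0814, edgeR). DESeq2 on the same counts called 9 of the 48, where it called 0.556% of the genes to which it gave an adjusted p: atp5if1a, ATP5PF, ATP5MG, atp5f1e, cox7b, COX7C, COX7A2 ENSDARG00000053217, COX5B ENSDARG00000015978 and UQCRQ.

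The library values of cox7b were 49.0, 46.1, 55.0 and 41.2 CPM in Het Phz imiquimod, 46.2, 26.8, 51.8, 35.2 and 33.7 CPM in Het Phz DMSO, 23.7, 37.3 and 17.2 CPM in Het unstressed imiquimod, and 54.5, 43.8, 57.5 and 51.7 CPM in Het unstressed DMSO. In WT they were 38.4, 23.9, 52.5 and 57.4 CPM in Phz imiquimod, 39.6, 17.6 and 25.7 CPM in Phz DMSO, 22.6, 22.6, 23.9 and 30.2 CPM in unstressed imiquimod, and 66.2, 50.4 and 44.4 CPM in unstressed DMSO. Without stress the imiquimod libraries of each genotype were below its DMSO libraries, and after Phz the ranges overlapped in both genotypes. The COX5B copy ENSDARG00000015978 had, after Phz, 167 to 286 CPM (median 205) in the 8 imiquimod libraries and 130 to 236 CPM (median 166) in the 8 DMSO libraries. Without stress it had 111 to 145 CPM (median 135) in the 7 imiquimod libraries and 148 to 226 CPM (median 181) in the 7 DMSO libraries. Its ranges overlapped after Phz and were separate without stress.

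ATP5F1A, the alpha subunit of F1, was the only tested gene with a negative value in this contrast (-0.45 ± 0.17, adjusted p = 0.444, edgeR). It had 678, 885, 539 and 689.8 CPM in Het Phz imiquimod, 758, 879.9, 908, 1149 and 1122 CPM in Het Phz DMSO, 808, 936 and 959.8 CPM in Het unstressed imiquimod, and 591, 989, 785 and 616 CPM in Het unstressed DMSO. In WT it had 893, 989, 1020 and 707 CPM in Phz imiquimod, 771, 1134 and 909 CPM in Phz DMSO, 968, 1002, 943 and 964 CPM in unstressed imiquimod, and 884, 849 and 863 CPM in unstressed DMSO. The WT unstressed imiquimod libraries were all above the WT unstressed DMSO libraries. Its partner in the head, ATP5F1B, lay between 709 and 1042 CPM (median 856) in unstressed imiquimod and between 774 and 1234 CPM (median 941) in unstressed DMSO, with overlap.

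**Figure D2:**
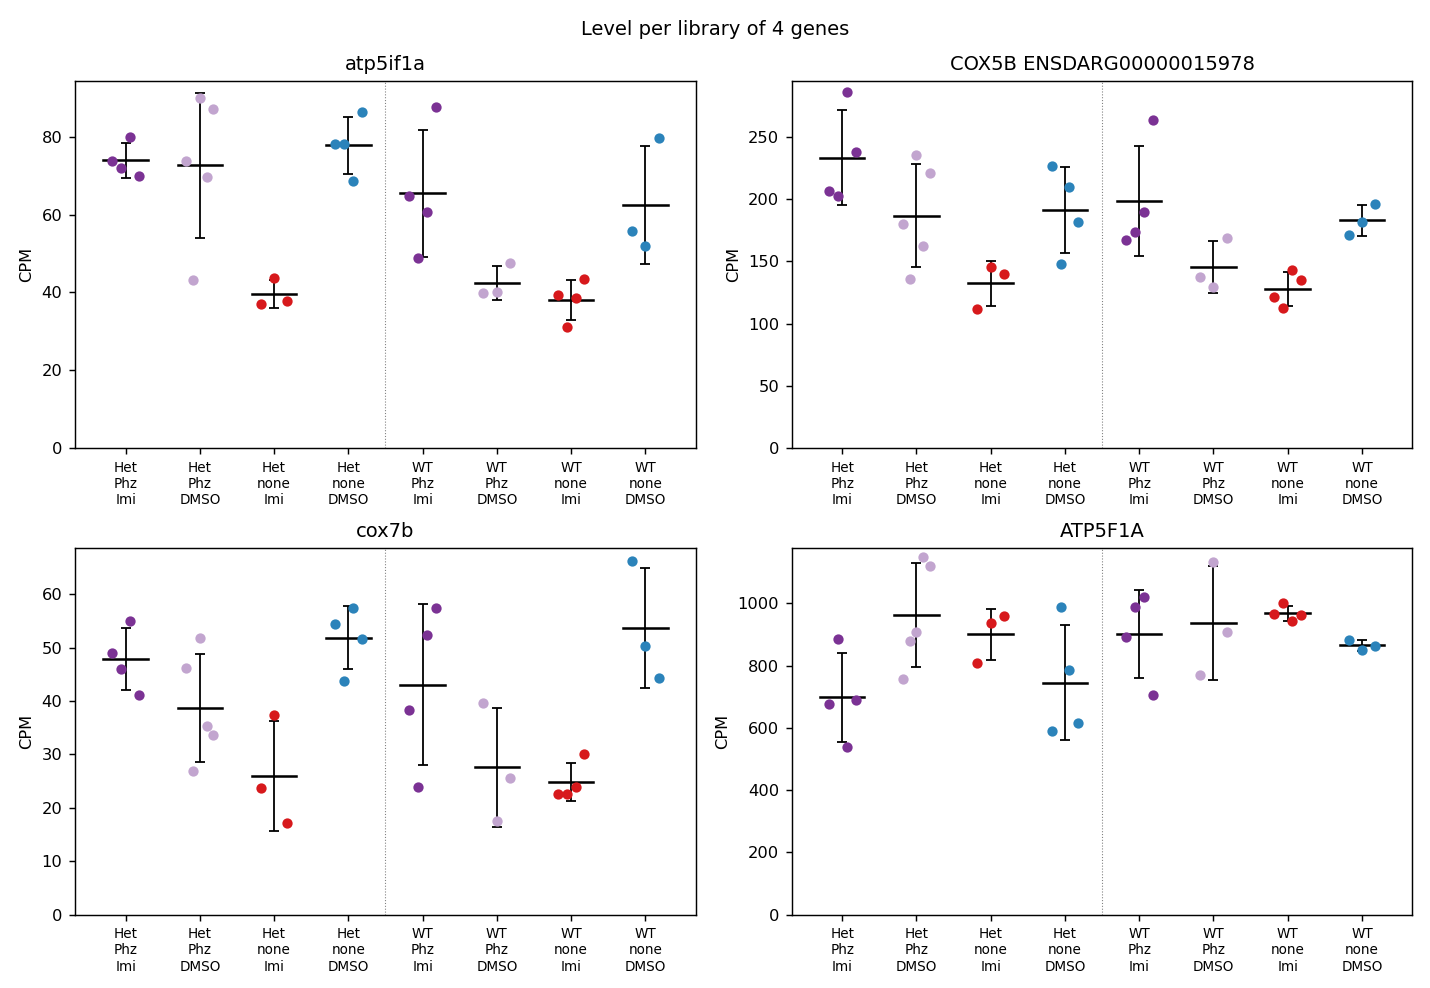
CPM of atp5if1a, the COX5B copy ENSDARG00000015978, cox7b and ATP5F1A in each library, by group; the horizontal lines and bars are the group mean and SD. atp5if1a had 37.1 to 43.8 CPM in Het unstressed imiquimod and 68.6 to 86.5 CPM in Het unstressed DMSO, while ATP5F1A was highest on average in WT unstressed imiquimod.

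To see where the difference lay, imiquimod was compared with DMSO separately after Phz and without stress, averaged over genotypes; these comparisons were added after the interaction had been seen. After Phz the medians were 0.12, 0.17 and 0.17 for complexes III, IV and V, beside 0.07 for all tested genes, and 39 of 48 values were positive (55.8% of all tested genes). There 4 of the 48 had an unadjusted p under 0.05 (9.48% of all tested genes), 0 were called by edgeR (0.00502% of all tested genes) or by DESeq2 (0.583% of the genes with an adjusted p), and COX5B ENSDARG00000015978 had the smallest p (0.38 ± 0.14, adjusted p = 0.382, edgeR). Without stress 46 of 48 genes had a negative log2 fold change (45.7% of all tested genes did) and 35 had an unadjusted p under 0.05 (7.17% of all tested genes). The medians were -0.34 for complex III, -0.62 for complex IV and -0.47 for complex V, beside 0.05 for all tested genes. edgeR called 0 of the 48 (0.0151% of all genes were called) and DESeq2 called 14 (0.541% of the genes with an adjusted p there). The smallest p was that of atp5if1a, at -0.88 ± 0.17 (adjusted p = 0.0620, edgeR), followed by cox7b at -1.08 ± 0.23 (adjusted p = 0.120, edgeR).

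The values without stress were spread over each complex and are given here by role. In complex III, UQCRQ and UQCR10, small accessory subunits, had log2 fold changes of -1.09 ± 0.27 and -0.92 ± 0.23 (adjusted p = 0.185 and 0.209, edgeR). The core proteins UQCRC1, UQCRC2 and uqcrc2a had -0.27 ± 0.12, -0.33 ± 0.17 and -0.12 ± 0.13. This pair thus had larger values than these core proteins, but UQCRH and UQCRB, given below, were close to the core proteins. UQCRFS1, the Rieske iron-sulphur protein, had -0.38 ± 0.13, and CYC1, the cytochrome c1 that hands electrons to cytochrome c, had -0.11 ± 0.11. The hinge protein UQCRH had -0.34 ± 0.15 and the accessory subunit UQCRB, at a mean of 8.58 CPM, -0.39 ± 0.34. All 9 were negative, none passed the adjusted threshold, and differences between genes were not tested.

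In complex IV the subunits with several copies were read copy by copy. COX4I1 had -0.39 ± 0.15 without stress, while COX4I2, in mammals the isoform induced by low oxygen, had 0.10 ± 0.57 at a mean of 3.91 CPM over all libraries. COX5A had -0.38 ± 0.17 and its copy cox5aa -0.37 ± 0.12. The COX5B copy ENSDARG00000015978 had -0.56 ± 0.14, and ENSDARG00000068738, at 1.83 CPM, had -0.38 ± 0.79. The better counted copy of each pair was negative. Of the cox6 subunits, cox6a1 ENSDARG00000022438 had -0.60 ± 0.14, COX6A1 ENSDARG00000054588 -1.12 ± 0.53, cox6b1 -0.72 ± 0.21, cox6b2 -0.62 ± 0.15 and cox6c -0.98 ± 0.24. Of the cox7 subunits, the COX7A2 copies ENSDARG00000053217 and ENSDARG00000110700 had -0.84 ± 0.19 and -0.93 ± 0.36, COX7C -1.18 ± 0.31, and COX7A2L, which in mammals joins complexes III and IV into supercomplexes, -0.40 ± 0.14. The low isoforms cox7a1 and cox8b, at 2.63 and 2.84 CPM, had -1.21 ± 0.72 and -0.64 ± 0.64, and cox8a -0.49 ± 0.21. All but COX4I2 were thus negative, and none was called by edgeR; reads of near-identical copies could be split between them.

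In complex V the head had values of both signs: ATP5F1A 0.19 ± 0.13, ATP5F1B -0.15 ± 0.10, and the central-stalk subunits ATP5F1C -0.31 ± 0.12, ATP5F1D -0.39 ± 0.16 and atp5f1e -0.996 ± 0.29. The peripheral stalk, which holds the head in place, had -0.30 ± 0.12 (ATP5PB), -0.30 ± 0.13 (ATP5PO), -0.37 ± 0.13 (ATP5PD) and -0.77 ± 0.17 (ATP5PF). The 3 genes of the proton-carrying c ring had -0.41 ± 0.15 (atp5mc1), -0.40 ± 0.11 (atp5mc3b) and -0.28 ± 0.14 (ATP5MC3). The stalk and the ring thus had values of 1 sign, which the small membrane subunits shared. Among these, atp5meb, ATP5MG, atp5mj and atp5mf had -0.69 ± 0.16, -0.77 ± 0.18, -0.73 ± 0.22 and -0.70 ± 0.26, and atp5mea and atp5md, at 4.24 and 3.31 CPM, -1.02 ± 0.56 and -1.27 ± 0.63. The second inhibitor gene, atp5if1b, had -0.53 ± 0.14, beside -0.88 ± 0.17 for atp5if1a. Every complex V gene but ATP5F1A was thus negative, and none was called by edgeR.

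**Figure D3:**
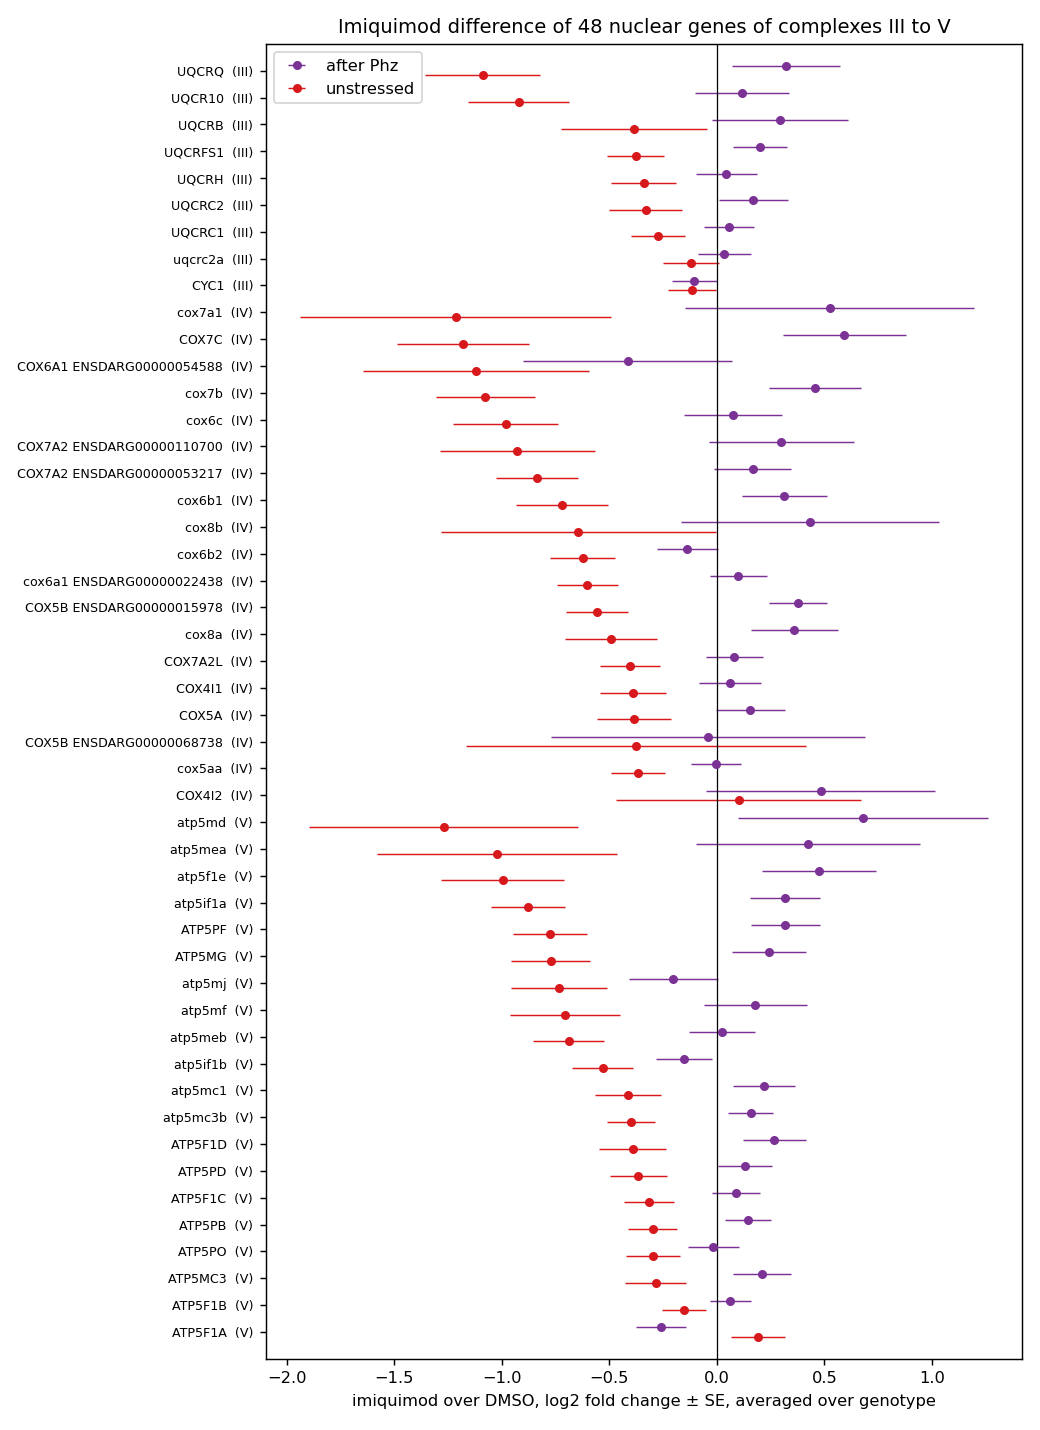
Log2 fold change of imiquimod against DMSO for each of the 48 tested genes, after Phz and without stress, averaged over genotypes, with bars for the standard error. After Phz 39 of 48 were positive, and without stress 46 of 48 were negative.

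Within single genotypes the medians had the signs of the average. After Phz the imiquimod medians were 0.08, 0.05 and 0.15 in Het and 0.12, 0.27 and 0.14 in WT, beside 0.01 in Het and 0.10 in WT for all tested genes, with 1 gene in Het and 2 in WT at an unadjusted p under 0.05 (4.31% and 9.12% of all tested genes). edgeR called 0 of all tested genes in either genotype, and DESeq2 called 0 of the 48, beside 0.0653% of the genes with an adjusted p in Het and 0.423% in WT. Without stress the medians in Het were -0.37, -0.47 and -0.42 for complexes III, IV and V, and in WT they were -0.38, -0.83 and -0.60; the medians of all genes were 0.01 in Het and 0.08 in WT. Of the 48 genes, 15 in Het and 24 in WT had an unadjusted p under 0.05 (4.40% and 7.06% of all tested genes). With 1 library left out these counts were 7 to 18 in Het and 18 to 29 in WT; the 7 was without Het unstressed imiquimod replicate 1, and without the libraries numbered S1 to S6 in the labels the Het count was 5. edgeR called 0 of all tested genes in both. DESeq2, which called 0.132% of the genes with an adjusted p in Het and 0.438% in WT, called atp5if1a in Het and 7 genes in WT: cox6b2, COX7A2 ENSDARG00000053217, cox6c, UQCRQ, atp5if1b, ATP5PF and ATP5MG. The smallest p in Het was that of atp5if1a (-0.98 ± 0.25, adjusted p = 0.775, edgeR) and in WT that of cox6b2 (-1.03 ± 0.21, adjusted p = 0.150, edgeR). The difference between the genotypes in the imiquimod effect was tested over both stress states: edgeR called 0 genes of all 19930 and DESeq2 23 (0.116% of the genes with an adjusted p), none of them among the 48, 2 of the 48 had an unadjusted p under 0.05 (5.91% of all tested genes), and the smallest p was that of cox6b2 (0.51 ± 0.21, adjusted p = 0.804, edgeR).

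With imiquimod, the levels of atp5if1a and the COX5B copy ENSDARG00000015978 were higher after Phz than without stress. This comparison shares its libraries with those above and was also added after they had been seen. With imiquimod, averaged over genotypes, the log2 fold change of Phz was 0.88 ± 0.17 for atp5if1a (adjusted p = 0.0191, edgeR) and 0.77 ± 0.14 for COX5B ENSDARG00000015978 (adjusted p = 0.0178, edgeR). These 2 of 48 were called where 0.125% of all tested genes were. Both missed the threshold without Het unstressed imiquimod replicate 1 or 2, WT Phz imiquimod replicate 4 or Het Phz imiquimod replicate 3, and atp5if1a also without WT unstressed imiquimod replicate 2 or Het unstressed imiquimod replicate 3; with 1 library left out the values stayed between 0.80 and 0.94 for atp5if1a and between 0.69 and 0.82 for COX5B ENSDARG00000015978. The sign was positive for 47 of the 48 genes (45.2% of all tested genes), 33 had an unadjusted p under 0.05 (8.04% of all tested genes), with medians of 0.36, 0.55 and 0.42 for complexes III, IV and V and -0.06 for all tested genes. DESeq2 called 10 of the 48 (1.39% of the genes with an adjusted p). With DMSO the medians were -0.11, -0.23 and -0.15, beside -0.06 for all tested genes. There edgeR called 0 of all tested genes, DESeq2 called 0 of the 48 (0.951% of the genes with an adjusted p), and 6 of the 48 had an unadjusted p under 0.05 (11.3% of all tested genes), 2 without WT Phz DMSO replicate 2; the smallest p was that of cox7b (-0.66 ± 0.22, adjusted p = 0.263, edgeR).

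Depth and markers of other cells differed between the same libraries. Total counts were 6877888 to 15238153 in the 8 Phz imiquimod libraries and 5703056 to 6557319 in the 7 unstressed imiquimod libraries, with no overlap. Of 11 erythroid markers 10 had a positive value after Phz (median 0.70, 4 at an unadjusted p under 0.05, 0 called by edgeR), and they summed to between 371 and 1825 CPM in Phz imiquimod libraries and between 426 and 1009 CPM in unstressed imiquimod libraries. All 11 had counts in every library but hbae5, at 0 in 1. For all tested genes the shares in this comparison, Phz with imiquimod, stand in the paragraph above. The 5 neutrophil markers all had negative values (median -0.45, 0 called), with sums of 7001 to 16115 CPM in Phz imiquimod libraries and 9035 to 24819 CPM in unstressed imiquimod libraries. Lymphoid markers had 2 of 6 positive (median -0.33), skeletal muscle markers 6 of 7 (median 0.85) and exocrine pancreas markers 1 of 12 (median -1.89), with 0 called in each list. Without the 2 libraries highest in muscle markers the Phz value with imiquimod was 0.80 for atp5if1a and 0.69 for COX5B ENSDARG00000015978 (adjusted p = 0.0820 and 0.0677, edgeR). These 2 libraries included WT Phz imiquimod replicate 4, without which alone both calls also ended. Without the 4 highest in pancreas markers the values were 0.92 for atp5if1a and 0.89 for COX5B ENSDARG00000015978. That fit held 1 Het unstressed imiquimod library. The part of depth and of erythroid, neutrophil and lymphoid cells in these values was not tested.

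Both genotypes showed this sign with imiquimod. The medians after Phz were 0.48, 0.57 and 0.41 in Het and 0.44, 0.59 and 0.51 in WT for complexes III, IV and V, beside -0.05 in Het and -0.07 in WT for all tested genes, and 16 genes in Het and 25 in WT had an unadjusted p under 0.05 (4.25% and 6.41% of all tested genes). The Het count was 9 without Het unstressed imiquimod replicate 1 and 10 without Het Phz imiquimod replicate 3. Within single genotypes edgeR called 0 of all tested genes there, and DESeq2 called 0 of the 48, beside 0.0955% of the genes with an adjusted p in Het and 0.277% in WT. With DMSO the medians after Phz were -0.02, -0.06 and -0.16 in Het and -0.14, -0.47 and -0.15 in WT, beside -0.05 in Het and -0.08 in WT for all tested genes. edgeR called 0 of all tested genes there and DESeq2 0 of the 48, beside 0.0854% of the genes with an adjusted p in Het and 0.659% in WT. At an unadjusted p under 0.05 were 1 of the 48 in Het and 8 in WT (6.99% and 10.7% of all tested genes). With 1 library left out the WT count was 0 to 10: it was 0 without WT Phz DMSO replicate 2, 3 without WT unstressed DMSO replicate 3 and 5 without WT Phz DMSO replicate 3. The smallest p in Het was that of ATP5F1A (0.42 ± 0.16, adjusted p = 0.594, edgeR) and in WT that of cox7b (-0.96 ± 0.35, adjusted p = 0.438, edgeR). The test of the difference between genotypes in the Phz effect called 0 of all 19930 genes (DESeq2 23, or 0.116% of the genes with an adjusted p, none among the 48), with 1 of the 48 at an unadjusted p under 0.05 (5.56% of all tested genes), uqcrc2a at 0.39 ± 0.18 (adjusted p = 0.888, edgeR).

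The calls for atp5if1a and COX5B ENSDARG00000015978 with imiquimod ended in some fits that left out 1 library. All genes called, 25 with all libraries, were also fewer in these fits. They numbered 5 and 3 without Het unstressed imiquimod replicate 1 or 2, 5 without WT Phz imiquimod replicate 4 and 1 without Het Phz imiquimod replicate 3. Without WT unstressed imiquimod replicate 2 or Het unstressed imiquimod replicate 3 they numbered 14 and 10. A lost call may thus only follow the number of all genes called. That of atp5if1a ended without Het unstressed imiquimod replicate 1 (adjusted p = 0.0808, edgeR), 2 (0.0533) or 3 (0.0803), WT unstressed imiquimod replicate 2 (0.0536), WT Phz imiquimod replicate 4 (0.0628) or Het Phz imiquimod replicate 3 (0.0517), at log2 values of 0.80 to 0.94. That of COX5B ENSDARG00000015978 ended without Het unstressed imiquimod replicate 1 (adjusted p = 0.0710, edgeR) or 2 (0.0533), WT Phz imiquimod replicate 4 (0.0550) or Het Phz imiquimod replicate 3 (0.0517), at log2 values of 0.69 to 0.82.

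The median differences between the genotypes were small, and single genes ran in both directions. Averaged over the 4 conditions, the Het against WT medians were 0.07, 0.07 and 0.08 for complexes III, IV and V, beside 0.02 for all tested genes. edgeR called 0 of the 48, where 0.437% of all tested genes were called, and 11 had an unadjusted p under 0.05 (8.98% of all tested genes), 8 of them lower in Het (3.91% of all tested genes). The 11 were 7 without Het Phz imiquimod replicate 3 or without WT Phz DMSO replicate 2. DESeq2 called 4 (3.61% of the genes with an adjusted p): atp5mc3b, COX7A2L and cox6b2, lower in Het, and COX5A, higher in Het.

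The smallest p belonged to atp5mc3b, a c-ring gene. It had 502 to 998 CPM (median 759.6) in the 16 Het libraries and 679 to 1107 CPM (median 834) in the 14 WT libraries. The log2 fold change was -0.30 ± 0.08 (adjusted p = 0.0812, edgeR), and the group means were lower in Het in each of the 4 conditions. Log2 fold changes also use a scaling factor per library (TMM), which CPM leaves out. Its mean was 1.03 in Het and 0.967 in WT libraries, so CPM and log2 fold changes between genotypes are on slightly different scales. limma voom called it (adjusted p = 0.0449), as did edgeR without Het unstressed imiquimod replicate 1 (adjusted p = 0.0453). The other 2 c-ring genes had values of the opposite sign, 0.20 ± 0.10 for ATP5MC3 and 0.21 ± 0.11 for atp5mc1 (adjusted p = 0.546 and 0.559, edgeR).

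COX7A2L had 72.0 to 119 CPM (median 97.5) in Het and 72.7 to 141 CPM (median 115) in WT, a log2 fold change of -0.35 ± 0.10 (adjusted p = 0.107, edgeR). COX5A, a subunit on the matrix side of complex IV, had 50.2 to 113 CPM (median 89.6) in Het and 38.9 to 89.9 CPM (median 61.1) in WT. Its log2 fold change was 0.41 ± 0.12 (adjusted p = 0.133, edgeR), while that of its copy cox5aa was -0.18 ± 0.08 (adjusted p = 0.531, edgeR). The genotypes overlapped in both genes. cox6b2, in mammals the testis isoform of a subunit that faces the intermembrane space, had 122 to 223 CPM (median 165) in Het and 105 to 303 CPM (median 189.5) in WT (log2 fold change -0.35 ± 0.10, adjusted p = 0.153, edgeR). Its largest gap was between unstressed DMSO groups, with 223, 145, 163 and 187 CPM in Het and 290.5, 241 and 264 CPM in WT.

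Other genes of smaller p were ATP5F1A (-0.26 ± 0.09, adjusted p = 0.235, edgeR), COX6A1 ENSDARG00000054588 (-1.03 ± 0.36, adjusted p = 0.274, edgeR) and COX4I1 (-0.29 ± 0.11, adjusted p = 0.332, edgeR). Of the 48, the COX6A1 copy had the genotype value of largest size, but it was measured less precisely than many others. Its SE was 0.36, against 0.08 for atp5mc3b, the gene of smallest p. UQCRC1 had 0.18 ± 0.09 and uqcrc2a -0.19 ± 0.09. In single conditions edgeR and DESeq2 called 0 of the 48; edgeR called 0.00502% of all tested genes in 3 of the conditions and 0 genes in Phz imiquimod. RPS14 itself, at log2 fold changes from -0.99 to -1.41, was called by edgeR in none of them (adjusted p 0.161 to 0.624). The absence of edgeR calls in single conditions thus does not show equal levels. DESeq2 called 0.277% of the genes with an adjusted p in unstressed DMSO, 0.636% in unstressed imiquimod, 0.359% in Phz DMSO and 0.0201% in Phz imiquimod. At an unadjusted p under 0.05 there were 3 in unstressed DMSO, 4 in unstressed imiquimod, 2 in Phz DMSO and 3 in Phz imiquimod (8.17%, 4.06%, 7.83% and 3.51% of all tested genes). The smallest p was that of cox6b2 in unstressed DMSO (-0.70 ± 0.21, adjusted p = 0.462, edgeR), of uqcrc2a in unstressed imiquimod (-0.49 ± 0.19), of atp5if1a in Phz DMSO (0.70 ± 0.24) and of ATP5F1A in Phz imiquimod (-0.47 ± 0.16).

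**Figure D4:**
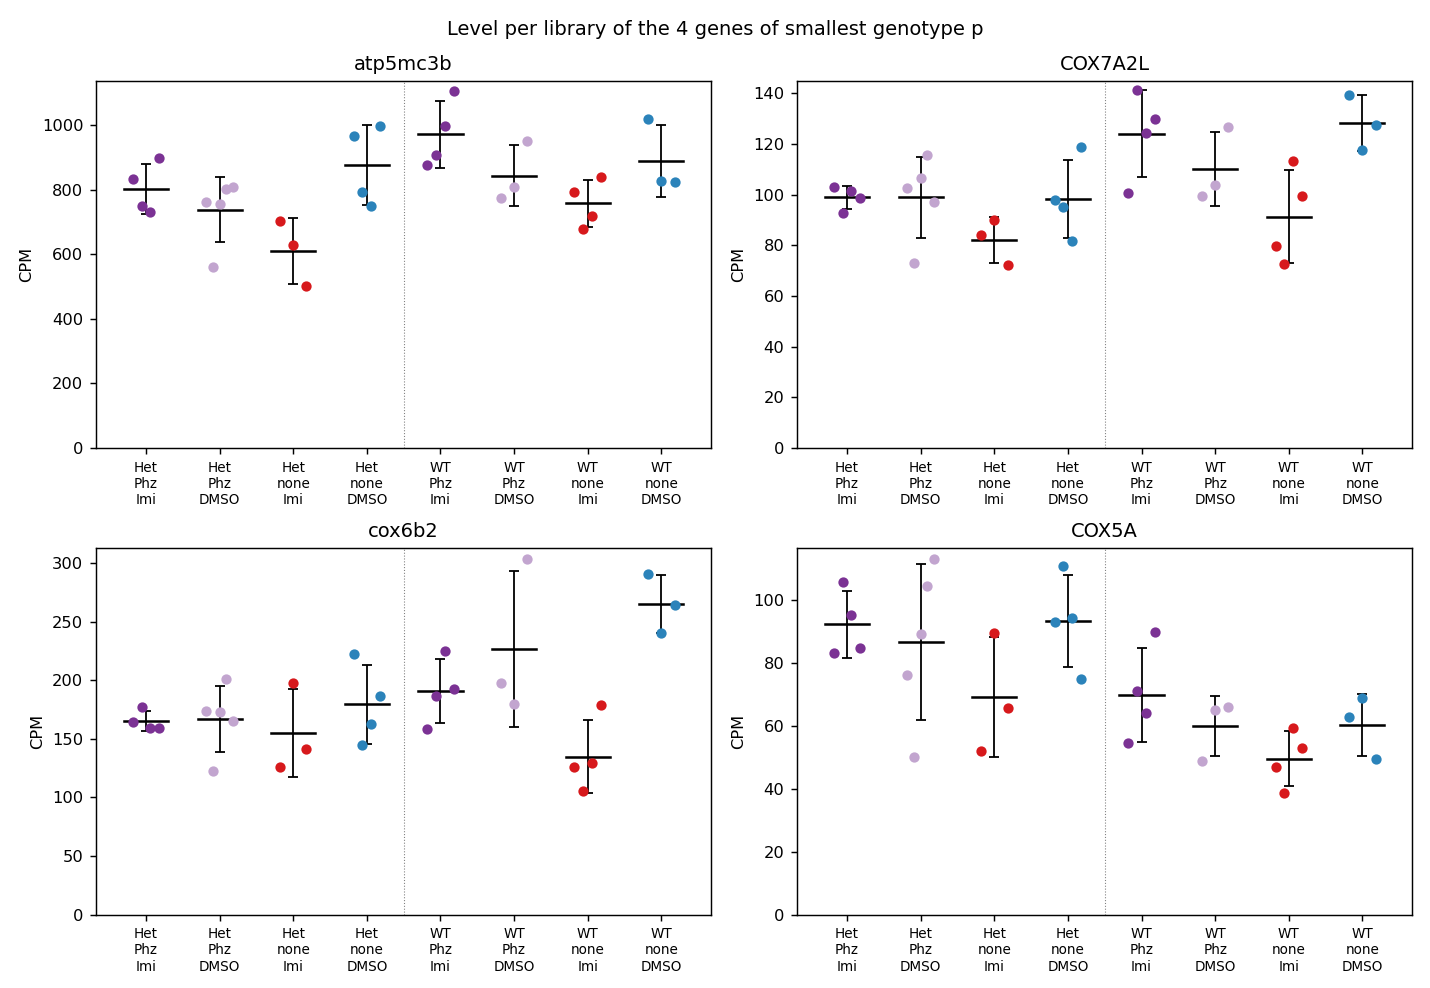
CPM of atp5mc3b, COX7A2L, cox6b2 and COX5A, the genes of smallest p for genotype, in each library by group; the horizontal lines and bars are the group mean and SD. The genotypes overlap in each gene: atp5mc3b spans 502 to 998 CPM in Het and 679 to 1107 CPM in WT.

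Averaged over genotype and treatment, Phz gave 43 of 48 positive log2 fold changes (44.2% of all tested genes), with medians of 0.16, 0.11 and 0.14 and -0.06 for all tested genes. edgeR called 0 of the 48 (0.0201% of all tested genes) and 5 had an unadjusted p under 0.05 (12.4% of all tested genes). Among the 3 genes of smallest p per complex, the largest values were those of UQCR10 (0.35 ± 0.16), COX5B ENSDARG00000015978 (0.30 ± 0.10, adjusted p = 0.194, edgeR), cox6b1 (0.29 ± 0.15) and atp5if1a (0.28 ± 0.12). The poorly counted COX5B copy ENSDARG00000068738 had 0.71 ± 0.55. Imiquimod averaged over genotype and stress gave 47 of 48 negative values (42.7% of all tested genes), with medians of -0.11, -0.21 and -0.19 and 0.06 for all tested genes. edgeR called 0 of the 48 (0.00502% of all tested genes) and 13 had an unadjusted p under 0.05 (8.98% of all tested genes). They were led by cox6b2 (-0.38 ± 0.10) and atp5if1b (-0.34 ± 0.10), both at an adjusted p of 0.237 (edgeR), while UQCR10 had -0.40 ± 0.16, atp5mj -0.47 ± 0.15 and cox6c -0.45 ± 0.17. DESeq2 called 0 of the 48 in both comparisons, where it called 0.873% of the genes with an adjusted p for Phz and 0.271% for imiquimod. With 1 library left out, 3 to 11 of the 48 had an unadjusted p under 0.05 for Phz and 9 to 16 for imiquimod. Both averages combine medians of opposite sign. As given above, the Phz medians were positive with imiquimod and negative with DMSO. Those of imiquimod were positive after Phz and negative without stress.

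Most other nuclear genes of mitochondria had negative values in unstressed imiquimod, and 5 list medians were below 0. The median log2 fold change of imiquimod without stress was -0.43 for 47 nuclear genes of complex I (43 negative), -0.37 for 6 of complex II and its assembly (5 negative), -0.32 for 75 mitochondrial ribosomal proteins (65 negative), -0.27 for 28 assembly factors of complexes III to V (23 negative) and -0.10 for 11 regulators of mitochondrial biogenesis (7 negative). The 2 nucleotide carriers SLC25A4 and SLC25A5 had 2.74 ± 1.81 and -0.13 ± 0.13. For cytochrome c, cycsb had -0.64 ± 0.20, and among assembly factors the copper carrier cox17 had -0.76 ± 0.18 (adjusted p = 0.157, edgeR). The 6 mitochondrially encoded subunits of complexes III to V had opposite signs in the genotypes. Without stress all 6 were positive in Het (median 0.36) and all 6 were negative in WT (median -0.68). In Het MT-CO1, MT-CO2 and MT-CO3 had 0.33 ± 0.21, 0.39 ± 0.16 and 0.54 ± 0.17, and MT-CYB, MT-ATP6 and mt-atp8 had 0.39 ± 0.47, 0.18 ± 0.49 and 0.25 ± 0.77. In WT MT-CO1, MT-CO2 and MT-CO3 had -0.61 ± 0.21, -0.74 ± 0.16 and -0.48 ± 0.17, and MT-CYB, MT-ATP6 and mt-atp8 had -0.52 ± 0.47, -1.72 ± 0.49 and -1.56 ± 0.77. At an unadjusted p under 0.05 were 2 of the 6 in Het (4.40% of all tested genes) and 4 in WT (7.06%), and edgeR called 0 in both. The difference between genotypes in the imiquimod effect, tested over both stress states, was positive for all 6 (median 0.65), with 3 at an unadjusted p under 0.05 (5.91% of all tested genes) and 0 called; MT-CO2 had 0.58 ± 0.16 (adjusted p = 0.747, edgeR). Averaged over genotypes the median without stress was -0.16. The difference between nuclear and mitochondrial subunits was not tested.

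Cytosolic ribosomal protein genes also had negative values in that comparison. The median for 80 of them was -0.40, with 79 negative. edgeR called 0 genes of these lists in that comparison. At an unadjusted p under 0.05 were 18 of 47 complex I genes, 2 of 6 of complex II, 20 of 75 mitochondrial and 46 of 80 cytosolic ribosomal protein genes, 4 of 28 assembly factors, 0 of 11 regulators and 1 of 6 mitochondrially encoded subunits, beside 7.17% of all tested genes. After Phz the medians of imiquimod were 0.05 for complex I, 0.02 for complex II, 0.00 for mitochondrial ribosomal proteins, 0.04 for assembly factors, 0.00 for biogenesis regulators, -0.26 for mitochondrially encoded subunits and -0.01 for ribosomal proteins (all tested genes 0.07), against -0.43, -0.37, -0.32, -0.27, -0.10, -0.16 and -0.40 without stress (all tested genes 0.05). Between genotypes, 35 of 80 ribosomal protein genes were called (median -0.46), and 0 of the 47 complex I genes (median 0.18), beside 0.437% of all tested genes, 87 in number. Without WT Phz DMSO replicate 3, Het unstressed imiquimod replicate 3 or WT unstressed DMSO replicate 1 the ribosomal protein genes called were 16, 20 and 17, and all genes called were 47, 49 and 56. Outside the cytosolic ribosomal proteins, the genes of these lists with the smallest p for genotype were SLC25A5 (-0.34 ± 0.09, adjusted p = 0.107, edgeR) and NDUFS7 of complex I (0.37 ± 0.10, adjusted p = 0.118, edgeR). For Phz they were MRPL12 of the mitochondrial ribosome (0.38 ± 0.11, adjusted p = 0.168, edgeR) and NDUFB10 of complex I (0.36 ± 0.12, adjusted p = 0.198, edgeR). For imiquimod they were ndufa11 of complex I (-0.50 ± 0.16, adjusted p = 0.287, edgeR) and MT-CO3 (-0.25 ± 0.08, adjusted p = 0.324, edgeR). None of these 6 was called.

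**Figure D5:**
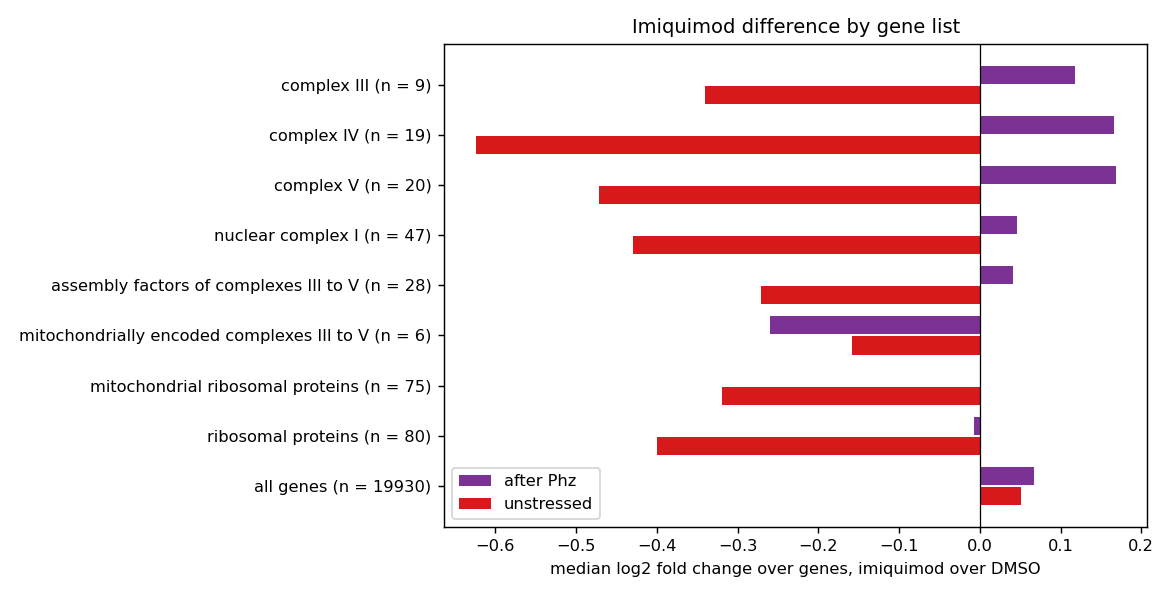
Median log2 fold change of imiquimod against DMSO after Phz and without stress, averaged over genotypes, for complexes III, IV and V, other lists of mitochondrial and ribosomal genes, and all tested genes. Without stress complex IV had a median of -0.62, complex I of -0.43, ribosomal proteins of -0.40 and all tested genes of 0.05.

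Stem and progenitor markers had a median log2 fold change of -0.12 for imiquimod without stress, with 2 of 8 positive. Thrombocyte markers summed to between 139 and 284 CPM in unstressed imiquimod and between 102 and 316 CPM in unstressed DMSO. Markers of other cells varied beside these results. Exocrine pancreas markers summed to between 479 and 7589 CPM in Het libraries and between 532 and 1525 CPM in WT libraries, with a median log2 fold change of 4.72 for genotype (11 of 12 genes positive, 10 at an unadjusted p under 0.05, 0 called). The shares of all tested genes called and at that unadjusted p are given above with the genotype results. The 2 copies of CPA1 had counts in every library, while ela2l was at 0 in 13. One CPA1 copy had a mean of 779 CPM, and the next highest marker, prss1, had 145 CPM. These sums thus rest in large part on 1 gene. Without stress these markers summed to between 532 and 3556 CPM in imiquimod libraries and between 608 and 4690 CPM in DMSO libraries. Leaving out the 4 libraries highest in them, all Het, gave atp5mc3b a genotype value of -0.21 (adjusted p = 0.517, edgeR) and atp5if1a an interaction value of 1.28 (adjusted p = 0.258, edgeR). That fit held 1 Het unstressed imiquimod library, assumed to vary like the other groups. Skeletal muscle markers summed to between 7.92 and 237 CPM in unstressed imiquimod and between 13.02 and 731 CPM in unstressed DMSO. Without the 2 libraries highest in muscle markers, WT Phz imiquimod replicate 4 and Het unstressed DMSO replicate 4, the interaction value of atp5if1a was 1.09 (adjusted p = 0.176, edgeR) and the complex III median was 0.35 in place of 0.50. Neutrophil markers summed to between 9035 and 24819 CPM in unstressed imiquimod and between 5425 and 31150 CPM in unstressed DMSO. Erythroid markers summed to between 426 and 1009 CPM in unstressed imiquimod and between 269 and 1210 CPM in unstressed DMSO, and lymphoid markers to between 383 and 565 CPM in unstressed imiquimod and between 261 and 551 CPM in unstressed DMSO (5 of 6 positive, median 0.32, 1 at an unadjusted p under 0.05, 0 called). Epidermis markers summed to between 89.5 and 299.7 CPM in unstressed imiquimod and between 27.7 and 876 CPM in unstressed DMSO (1 of 4 positive, median -0.60, 0 called), and macrophage markers to between 203 and 888 CPM in unstressed imiquimod and between 247 and 428 CPM in unstressed DMSO (7 of 11 positive, median 0.33, 0 called). Most of the 11 macrophage rows were copies of MFAP4, 1 of them at a mean of 0.60 CPM and at 0 in 21 of 30 libraries. Genes detected were 16658 to 20109 in unstressed imiquimod and 15353 to 19476 in unstressed DMSO. The part of depth and of other cells in the results was otherwise not tested.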

How the data were processed

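RNA-seq of sorted zebrafish cells gave 30 libraries in 8 groups. The authors deposited a table of raw counts per gene. The build was GRCz11 and the tools listed are Trimmomatic 0.39, HISAT2 2.1.0, SAMtools 1.9 and featureCounts (Subread 2.0.0), per the submitters' processing notes, which add FastQC 0.11.9 and DESeq2; the annotation release and whether counting used strand are not given in the sources used here, so reads of overlapping genes on opposite strands may be mixed. The library protocol was Smart-seq2, per the labels. The lowest total of a gene in the table is 25 counts. Of the gene IDs, 19528 carry a symbol. No 2 libraries were identical.

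Genes were filtered with filterByExpr (19930 kept), scaled with TMM and fitted with edgeR 4.0.16 (quasi-likelihood, robust, R 4.3.3) as 8 group means over all 30 libraries. Het over WT, Phz over unstressed, imiquimod over DMSO and their differences were contrasts of that fit: 18 planned and 4 added after seeing the data. P-values were adjusted by Benjamini-Hochberg over all tested genes, and a gene was called at an adjusted p under 0.05. The SE of a log2 fold change was its size over the square root of F. CPM are shares of a library's total count, and the means per complex average log2 CPM after TMM with a prior count of 2. The common dispersion was 0.674, a coefficient of biological variation of 0.821. Libraries held 5703056 to 15238153 counts, and genes with few counts are measured less precisely.

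The members and gene lists were chosen with earlier results of these data known. Named genes were, per complex, the 3 of smallest p in each averaged contrast, every called gene, the 2 of smallest p in each other contrast and fixed role genes; the further values by role without stress were added after the values were seen. Alternatives were DESeq2 1.42.0, limma 3.58.1 (voom), RLE scaling, no filter, a replicate block, library subsets and each library left out. The code was run on simulated counts with changes planted in well-counted genes. That was a check of the code and does not show how often changes of the smaller sizes reported here are found. Sequences and coordinates were not used here.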

Additional observations from a re-analysis of the deposited data

Results flagged for a closer look

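The imiquimod effect on atp5if1a differed between stress states, at 1.20 on the log2 scale after Phz minus without stress (adjusted p = 0.0479, edgeR interaction contrast). Each of 28 measures was checked in every group of 4 or 5 libraries, 140 checks in all. In 4 of the 140 a library stood apart from its group. That is below the rate of about 1 in 20 that chance gives, so the 4 are given as description only. The summed level of complex III was 1428 CPM in WT unstressed imiquimod replicate 3, against 1169 to 1206 CPM in the other libraries of its group. The summed level of complex IV was 934 CPM in Het Phz DMSO replicate 2, against 1249 to 1364 CPM in the others. In the same library atp5mc3b had 562 CPM, against 756 to 809.7 CPM in the others. For atp5meb, WT unstressed imiquimod replicate 4 had 54.0 CPM, against 38.2 to 38.7 CPM in the others.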

How the results depend on the processing

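No called value changed sign under any setting; the complex IV median for genotype, 0.07, was -0.07 without the 4 libraries highest in exocrine pancreas markers. In the interaction of Phz and imiquimod, where edgeR called 1 gene, DESeq2 called 9, the replicate block and a term for the libraries numbered S1 to S6 in the labels 2 each, and 0 were called with RLE scaling, no filter, limma voom, totals without ribosomal protein genes, or without S1 to S6, the 2 libraries highest in muscle markers or the 4 highest in exocrine pancreas markers; with 1 library left out the count was 0 to 2. Over the 10 settings other than leaving out single libraries, the interaction log2 value of atp5if1a stayed between 1.09 and 1.28. Its smallest adjusted p was 5.979e-04 (DESeq2), and in most of the 10 it was not called. For Phz with imiquimod, where edgeR called 2, DESeq2 called 10 and 0 were called without S1 to S6, the muscle or the pancreas libraries (0 to 3 with 1 library left out). For imiquimod without stress DESeq2 called 14 in place of 0 (0 to 1 with 1 left out), 7 in WT and 1 in Het. For genotype DESeq2 called 4 in place of 0, and limma voom, the block and the S1 to S6 term 1 each (0 to 1 with 1 left out). DESeq2 also called more of all genes. Its shares were 0.556% in the interaction and 3.61% for genotype, of genes with an adjusted p. Those of edgeR were 0.0351% and 0.437% of all tested genes. Shares for the other settings are not set beside these counts. A gene gained or lost there may thus only follow the number of all genes called. The complex III median without the pancreas libraries was -0.14 in place of -0.01 for genotype by imiquimod, 0.68 in place of 0.50 in the interaction of Phz and imiquimod, -0.50 in place of -0.34 for imiquimod without stress and 0.55 in place of 0.36 for Phz with imiquimod; without the muscle libraries the interaction median was 0.35. Leaving out 1 library gave 0.37 (WT Phz imiquimod replicate 4) to 0.61 (Het unstressed imiquimod replicate 3). The causes were not tested. Over the 10 settings other than leaving out single libraries, genes at an unadjusted p under 0.05 numbered 27 to 36 in the interaction. For imiquimod without stress they numbered 25 to 38. Deviations from group means correlated at a mean of 0.014 for 94 pairs of same-numbered libraries and -0.004 for 298 other pairs. Of these pairs, 8 of the 94 and 7 of the 298 were over 0.1. Means near 0 cannot exclude that some numbers pair libraries. The labels do not state a pairing, so the block is only a setting here. Depth limits the genes under 6 CPM, whose standard errors for imiquimod without stress passed 0.5.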
